A study of Mus musculus with 24 samples.

Results

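The transcriptional response of the dorsal hippocampus to contextual fear conditioning (CFC) was described in wild-type (WT) mice by comparing 4 libraries made 1 h after training with 3 libraries from homecage controls. These 7 libraries were chosen by their labels, as the WT samples of the polyA-selected experiment (RNA-Seq 2), out of 24 libraries in the series. All came from male mice on the C57BL/6j background, about 3 months old, that were littermates of mice homozygous for the CBP KIX mutation. The paper's methods, however, state that both sexes were used in its groups, without giving the sex by library. In CFC a mouse explores a chamber and receives a foot-shock there, and the controls were handled on the preceding days as the trained mice were but were not shocked. The controls therefore differed from the trained mice in the shock, the new chamber and the time in it together, and these cannot be told apart here. Library totals ran from 15385836 to 43679701 counts over genes, with a median of 30143949. Replicates 1 and 2 were the deeper libraries (30143949 to 43679701), and replicates 3 and 4 the shallower (15385836 to 20568337).

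Neurons that fire strongly switch on immediate-early genes, which need no new protein synthesis because the factors that read them are already in the nucleus. Calcium and cAMP signals lead to phosphorylation of CREB, which binds cAMP response elements (CREs) and recruits the co-activator CBP through its KIX domain, while the MAPK cascade acts on serum response factor at CArG boxes. Many of the products are transcription factors, such as the Fos, Jun, Egr and Nr4a families, and others end the response, such as the dual-specificity phosphatases that switch MAPKs off. Their mRNAs are short-lived and are widely used as marks of neurons active during learning.

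The training response was an increase of 21 genes, with no gene called lower; with choroid plexus signal as a covariate, chosen after seeing the data, the calls were 22 higher and 16 lower. Of 18115 genes tested, these 21 (0.116%) had an adjusted p under 0.05 by edgeR's quasi-likelihood test with Benjamini-Hochberg adjustment, and all 21 were higher after CFC. Egr2 (log2 fold change 3.29) and Fos (2.79) had the largest changes, followed by Arc (1.62), 1700016P03Rik (1.61), Npas4 (1.46) and Egr1 (1.24). The smallest called change was that of Mcl1 (0.30), and 13 of the 21 had a log2 fold change over 1. In each of the 21, every CFC library was above every homecage library, an arrangement that 2.6% of all tested genes showed. Without adjustment 742 genes (4.1%) had p under 0.05, of which 409 (2.26%) were higher and 333 (1.84%) lower, and the median log2 fold change over all genes was -0.00461.

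**Figure D1:**
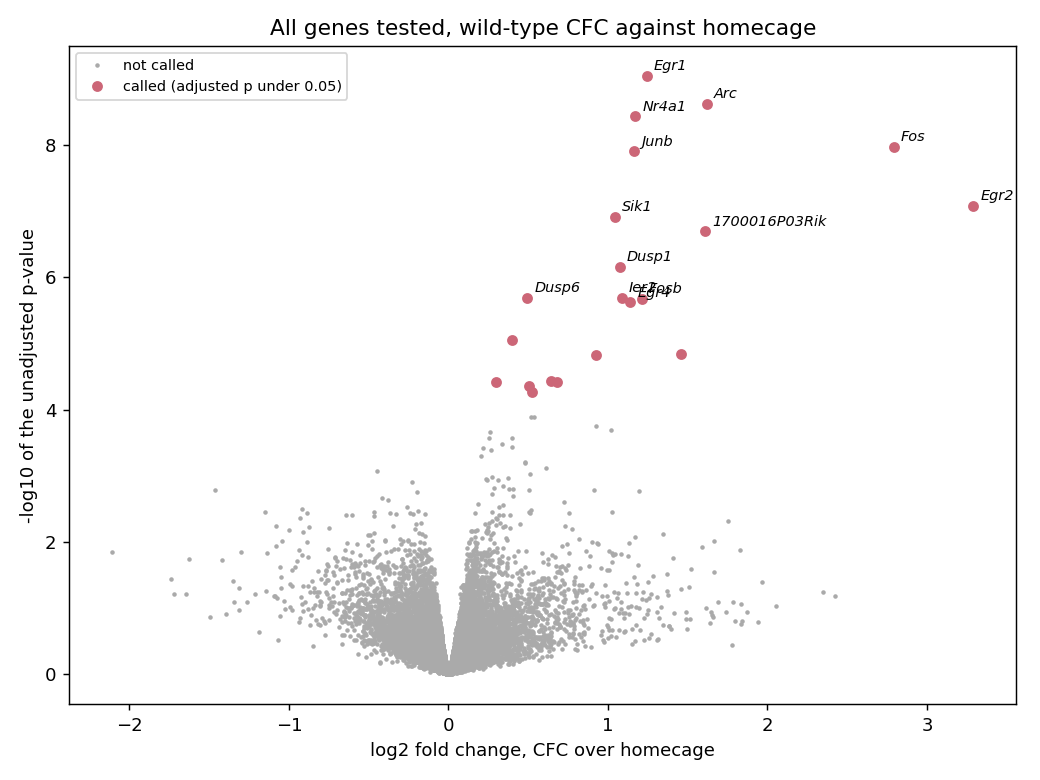
Each point is one of the 18115 genes tested, with its log2 fold change (CFC over homecage) on the horizontal axis and the -log10 of its unadjusted p-value on the vertical axis. The 21 called genes, drawn as larger points, all lie to the right, from 0.30 to 3.29, and the points to the left stay below them.

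The stretches before the starts of called genes are shown because the elements through which CREB and serum response factor act can be read in them. RefSeq promoter windows (GRCm38.p6, 250 bases before to 50 after a start) were at hand for 16 of the 21 genes, and 14 of these held a CRE core (TGACG), a full CRE (TGACGTCA, which holds the core on each strand) or a CArG box on either strand. Among all 32851 windows of that length, 20.8% held the CRE core, 1.79% the full CRE and 1.63% a CArG box. Where a gene had several windows the one with most matches was taken, which favours matches. The 250 bases before the start are printed 5′ to 3′ on the gene's strand, with every match in capitals, for the 5 genes of lowest p that held one: Nr4a1 (chr15:101266596-101266845, + strand), Fos (chr12:85473640-85473889, + strand), Junb (chr8:84978749-84978998, - strand), Egr2 (chr10:67537619-67537868, + strand) and Dusp1 (chr17:26508473-26508722, - strand).
Nr4a1: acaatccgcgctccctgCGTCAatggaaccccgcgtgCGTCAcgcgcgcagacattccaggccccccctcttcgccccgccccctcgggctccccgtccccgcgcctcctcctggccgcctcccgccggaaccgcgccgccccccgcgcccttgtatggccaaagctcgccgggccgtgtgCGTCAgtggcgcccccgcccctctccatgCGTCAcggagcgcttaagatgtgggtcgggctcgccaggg
Fos: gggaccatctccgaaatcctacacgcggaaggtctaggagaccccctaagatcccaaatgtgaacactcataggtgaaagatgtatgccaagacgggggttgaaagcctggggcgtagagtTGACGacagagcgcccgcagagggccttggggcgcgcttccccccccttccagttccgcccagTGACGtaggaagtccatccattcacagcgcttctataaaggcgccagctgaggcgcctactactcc
Junb: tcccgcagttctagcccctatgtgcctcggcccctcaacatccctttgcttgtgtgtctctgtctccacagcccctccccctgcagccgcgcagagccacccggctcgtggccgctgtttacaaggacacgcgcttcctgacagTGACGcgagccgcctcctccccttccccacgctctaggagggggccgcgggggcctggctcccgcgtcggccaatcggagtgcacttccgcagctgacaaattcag
Egr2: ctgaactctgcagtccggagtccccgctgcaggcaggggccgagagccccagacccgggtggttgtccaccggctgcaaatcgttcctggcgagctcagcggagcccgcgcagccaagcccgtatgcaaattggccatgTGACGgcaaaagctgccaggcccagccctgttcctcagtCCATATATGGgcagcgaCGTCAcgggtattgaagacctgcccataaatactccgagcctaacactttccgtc
Dusp1: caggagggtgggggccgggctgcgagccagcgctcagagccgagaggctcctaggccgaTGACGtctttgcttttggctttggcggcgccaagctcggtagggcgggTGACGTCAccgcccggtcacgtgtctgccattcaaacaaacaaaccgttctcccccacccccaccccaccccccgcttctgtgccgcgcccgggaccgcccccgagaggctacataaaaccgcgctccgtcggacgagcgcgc
Nr4a1 held 4 CRE cores, Fos held 2, and Junb held 1. Egr2 held 2 CRE cores beside 1 CArG box. Dusp1 held 1 full CRE and, counting both strands of it, 3 cores. A full CRE was also found in the window of Btg2, and Dusp5 held 2 CArG boxes, while Dusp6 and Tiparp held none of these motifs.

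The gene 1700016P03Rik (chr11:75172560-75177633, + strand, GRCm38) is a noncoding transcript whose span holds the hairpins of miR-212 (chr11:75173388-75173478) and miR-132 (chr11:75173682-75173747), microRNAs known as CREB-responsive in neurons. Their mature RefSeq sequences are given to show what the called transcript can encode, with the seed (bases 2 to 8), by which a microRNA pairs with its targets, in capitals.
mmu-miR-132-3p: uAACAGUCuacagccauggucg
mmu-miR-212-3p: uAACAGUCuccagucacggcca
mmu-miR-132-5p: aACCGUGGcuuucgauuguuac
mmu-miR-212-5p: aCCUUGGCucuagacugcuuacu
The 3p arms of both share the seed AACAGUC, so the pair would address the same kind of site, whereas the 5p arms differ from each other in the seed. What was counted was the polyadenylated host transcript and not the mature microRNAs. Its level was 2.16, 1.96 and 2.65 CPM (gene counts scaled by the size of the library) in the homecage libraries and 6.60, 6.52, 7 and 6.66 CPM after CFC. The 4 CFC libraries lay close together and well above the controls (log2 fold change 1.61 ± 0.13 (SE), adjusted p = 0.000455 by edgeR). An exon of it overlaps Ovca2 on the opposite strand, and since strand use in the counting is not stated, reads of the pair cannot be told apart. Ovca2, looked at after its values were seen, stood at 8.75, 10 and 10.3 CPM in homecage and 14.2, 12.9, 12 and 14.8 CPM after CFC (0.48 ± 0.10, adjusted p = 0.326 by edgeR), and it was called by DESeq2.

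Immediate-early transcription factors made up the largest group. Of 25 members of the list, 24 were tested and 10 were called higher, against 0.116% of all genes, and 23 of the 24 had a positive log2 fold change, with a median of 0.39. Jund, the remaining member, was listed at 0 in all 24 libraries of the series. The 10 were Egr1, Egr2, Egr4, Fos, Fosb, Junb, Ier2, Nr4a1, Npas4 and Csrnp1. This list and those below were chosen with earlier results of these data known, so their shares of calls are a description and no test of enrichment.

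Fos, the partner of Jun proteins in the AP-1 factor, was at 3.46, 5.02 and 5.16 CPM in homecage and at 33.1, 24.9, 33.1 and 33.7 CPM after CFC. The lowest trained library, CFC 2, was still far above the highest control, and the fitted fold was 6.92 (log2 2.79 ± 0.16, adjusted p = 4.45e-05 by edgeR). Fosb, a close relative of Fos, stood at 6.53, 5.87 and 7.75 CPM in homecage and 16.1, 13.2, 14.9 and 17.4 CPM after CFC (1.21 ± 0.12, adjusted p = 0.00317). Junb, a partner for both, was at 37.5, 36.4 and 32.5 CPM in homecage and 84.4, 73.2, 78.0 and 83.1 CPM after CFC (1.16 ± 0.07, adjusted p = 4.45e-05), and it overlaps Prdx2 on the opposite strand. The values of the other AP-1 members were smaller in change, although differences between members were not tested. Jun itself read 110, 104 and 106 CPM in homecage and 122, 106, 112 and 118 CPM after CFC, groups that overlapped (0.10 ± 0.05, adjusted p = 1), and Fosl2 was at 0.26 ± 0.05 (adjusted p = 0.151 by edgeR, called by DESeq2) with every CFC library above every control.

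The Egr family are zinc-finger factors that bind GC-rich sites and relay growth factor and synaptic signals. Egr1 (also Zif268) was at 79.0, 71.4 and 69.4 CPM in homecage and 182, 166, 174 and 171 CPM after CFC, and it had the lowest p of all genes (1.24 ± 0.06, adjusted p = 1.63e-05). Egr2 was low in homecage, at 0.540, 0.707 and 0.968 CPM, and at 7.88, 5.20, 7.92 and 6.50 CPM after CFC. Its lowest library held 15 reads and its highest 234, so this fold of 9.79 (log2 3.29 ± 0.23, adjusted p = 0.000249) rests on few control reads. Egr4 stood at 17.9, 13.6 and 13.5 CPM in homecage and 38.4, 30.8, 32.0 and 31.3 CPM after CFC (1.14 ± 0.12, adjusted p = 0.00329). Per kb of exon the order of the trained levels was Egr1 (38.7 CPM per kb), Egr4 (15.4), Egr3 (9.70) and Egr2 (2.02), so the member with the largest change had the lowest level. Egr3 had a log2 fold change of 0.32 ± 0.09 and was not called by edgeR (adjusted p = 1), although its groups did not overlap and it was called with 1 RUVr factor and with the plexus covariate.

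Among the nuclear receptors of the Nr4a family, which act without a known ligand, Nr4a1 was called by edgeR. Nr4a1 stood at 51.4, 50.1 and 44.8 CPM in homecage and 117, 109, 108 and 105 CPM after CFC (1.17 ± 0.06, adjusted p = 2.2e-05). Nr4a3 was at 84.6, 80.2 and 75.2 CPM against 112, 92.5, 115 and 103 CPM (0.40 ± 0.07, adjusted p = 0.219 by edgeR), and it was called by DESeq2, with 1 RUVr factor and with CFC 2 left out. Nr4a2 overlapped between the groups (0.11 ± 0.12, adjusted p = 1). Whether Nr4a1 differed from its relatives was not tested.

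Npas4, a neuron-restricted factor that follows calcium entry and shapes inhibitory synapses, was at 7.40, 10.2 and 6.59 CPM in homecage and 25.5, 17.0, 21.4 and 26.7 CPM after CFC (1.46 ± 0.18, adjusted p = 0.0167). Its lowest trained library was again CFC 2, and its adjusted p was 0.058 with the replicate block. Ier2 was at 4.10, 4.61 and 3.62 CPM in homecage and 9.43, 8.27, 8.65 and 9.14 CPM after CFC (1.09 ± 0.11, adjusted p = 0.00317). Csrnp1 had a smaller change (0.68 ± 0.10, adjusted p = 0.0367, and 0.0823 with the replicate block).

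**Figure D2:**
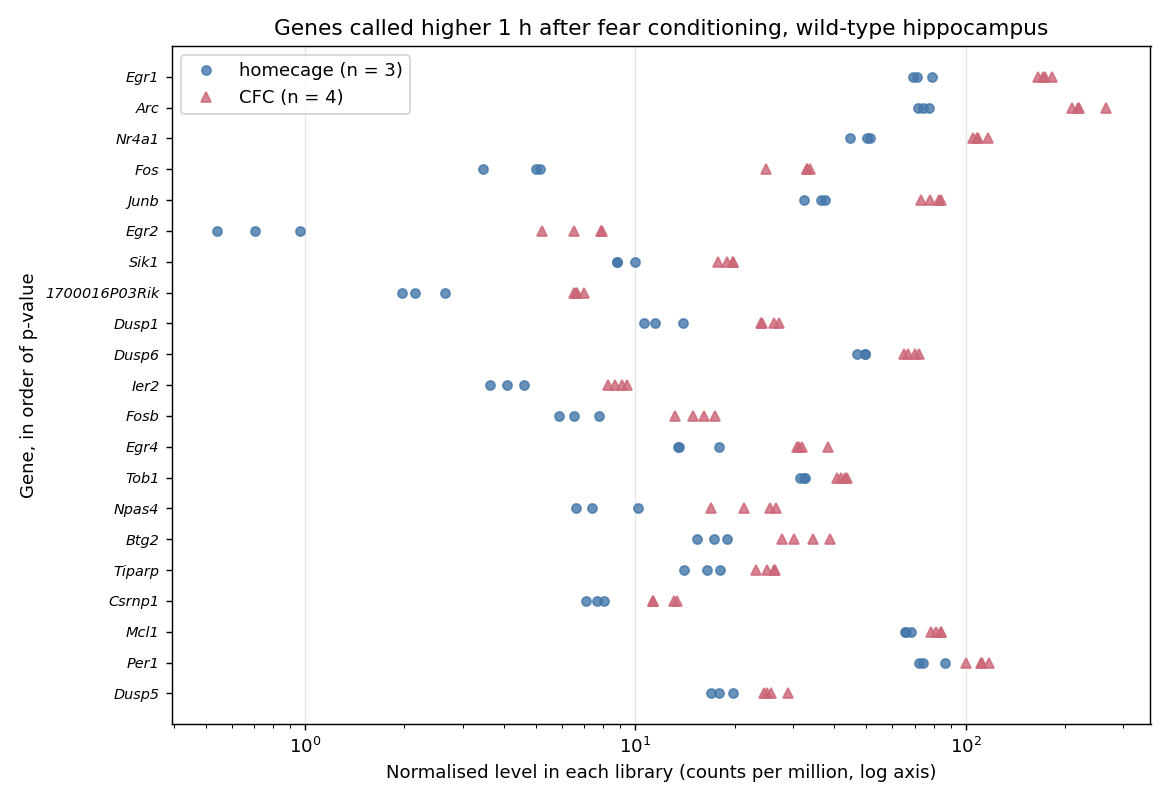
Normalised level (CPM, log axis) of the 21 called genes in each library, homecage as circles (n = 3) and CFC as triangles (n = 4), in order of p from the top. In every row the triangles lie to the right of the circles, with the widest gaps for Fos and Egr2.

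Effector and signalling genes showed fewer calls. In the list of synaptic and secreted effectors 1 of 20 members was called by edgeR, against 0.116% of all genes. This was Arc, the scaffold that moves AMPA receptors into the cell by endocytosis and whose mRNA travels to active dendrites. Arc was at 77.5, 74.3 and 71.6 CPM in homecage and 266, 210, 219 and 221 CPM after CFC, so that the lowest trained library was well over the highest control (1.62 ± 0.08, adjusted p = 2.15e-05). In the whole list 18 of 20 members had a positive sign, with a median of 0.08. Ccn1, a secreted matrix protein, was at 0.93 ± 0.16 (adjusted p = 0.135 by edgeR; called by DESeq2, with 1 RUVr factor and without the filter on low counts), and Bdnf, the neurotrophin, at 0.28 ± 0.08 (adjusted p = 1). Bdnf read 45.3, 38.9 and 36.5 CPM in homecage and 48.0, 50.7, 44.2 and 52.4 CPM after CFC, and its groups overlapped; these gene counts do not separate its activity-dependent transcripts.

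Of 17 feedback regulators of MAPK signalling, 3 were called, against 0.116% of all genes, and 14 had a positive sign (median 0.17). All 3 encode dual-specificity phosphatases, which remove phosphate from MAPKs. Dusp1, nuclear and acting on several MAPKs, was at 11.5, 13.9 and 10.6 CPM in homecage and 27.3, 24.0, 24.2 and 26.2 CPM after CFC (1.07 ± 0.10, adjusted p = 0.00139). Dusp6, a cytoplasmic phosphatase of ERK, was at 46.8, 49.6 and 49.5 CPM against 72.0, 70.2, 65.2 and 66.7 CPM (0.50 ± 0.05, adjusted p = 0.00317). Dusp5, a nuclear phosphatase of ERK, was at 17.9, 17.0 and 19.8 CPM against 25.1, 28.9, 24.6 and 25.8 CPM (0.52 ± 0.08, adjusted p = 0.0462), the least secure call, with an adjusted p of 0.136 with the replicate block. Dusp4 was at 0.31 ± 0.08 (adjusted p = 0.936), and none of the Sprouty or Spred inhibitors was called.

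The list of growth-arrest and short-lived survival genes held 4 calls among 20 members, against 0.116% of all genes, with 16 positive and a median of 0.32. Btg2, an anti-proliferative protein that promotes mRNA deadenylation, was at 17.3, 18.9 and 15.4 CPM in homecage and 34.5, 27.7, 30.2 and 38.9 CPM after CFC (0.92 ± 0.12, adjusted p = 0.0167). Its relative Tob1 moved less but with little scatter, from 31.5, 32.6 and 32.3 CPM to 43.8, 40.7, 42.0 and 43.1 CPM (0.40 ± 0.05, adjusted p = 0.0114, and 0.0561 with the replicate block). Tiparp, a mono-ADP-ribosyltransferase, was at 0.64 ± 0.09 (adjusted p = 0.0367, and 0.0516 with the block). Mcl1, a short-lived inhibitor of apoptosis of the Bcl2 family, was at 65.5, 68.4 and 66.1 CPM in homecage and 78.7, 84.0, 81.5 and 84.1 CPM after CFC (0.30 ± 0.04, adjusted p = 0.0367, and 0.0561 with the block). Gadd45b and Trib1 came closest among the rest (0.52 ± 0.08 and 0.54 ± 0.09, adjusted p = 0.102 for each by edgeR), and both were called by DESeq2 and with 1 RUVr factor.

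Of 22 genes of cAMP and CREB signalling, 1 was called, against 0.116% of all genes. It was Sik1, a kinase that holds CREB co-activators of the CRTC family in the cytoplasm. Sik1 was at 8.83, 10 and 8.78 CPM in homecage and 17.8, 19.7, 19.0 and 19.7 CPM after CFC (1.04 ± 0.08, adjusted p = 0.000314). The rest of the list, which holds CREB, its co-activators, adenylyl cyclases, protein kinase A subunits and phosphodiesterases, had log2 fold changes centred on 0 (list median -0.01, 10 positive and 12 negative). Crebbp, which encodes CBP itself, read 77.9, 68.7 and 75.4 CPM in homecage and 77.3, 69.5, 73.4 and 67.5 CPM after CFC (-0.04 ± 0.06, adjusted p = 1).

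The circadian clock list held 1 call among 21 members, against 0.116% of all genes. Per1, a repressor of the clock that is also CREB-responsive, was at 86.4, 74.5 and 72.1 CPM in homecage and 118, 111, 112 and 100 CPM after CFC (0.50 ± 0.07, adjusted p = 0.0403). Per2 was at 0.19 ± 0.08, Ciart at 0.34 ± 0.12 and Hlf at -0.16 ± 0.05, each with an adjusted p of 1, and the list median was 0.04. Per1 was also the only call among 20 tested genes that respond to glucocorticoids, of which 11 were positive and 9 negative (median 0.02). For Plin4 and Fkbp5 of that list homecage 3 stood apart from the other controls, whereas for Per1 it was the lowest control. The summed level of the list ran from 961 to 1100 CPM in homecage. Whether the values of homecage 3 bear on the contrast was not tested. Plin4, a lipid droplet protein, read 2.94, 3.99 and 17.2 CPM in the homecage libraries and 2.82 to 3.63 CPM after CFC. Fkbp5, a brake on the glucocorticoid receptor, read 57.3, 56.7 and 80.4 CPM in homecage, so that homecage 3 was again the highest.

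By edgeR no member was called among 17 GABA-A receptor and GABA synthesis genes (median -0.01), 22 glutamate receptor genes (median -0.01) or 21 heat-shock and ER chaperones (median -0.03). Unadjusted p under 0.05 was found for 2, 2 and 2 members of these lists, against 4.1% of all genes. Dnajb5 came nearest, at 145, 145 and 162 CPM in homecage and 186, 179, 174 and 187 CPM after CFC (0.27 ± 0.05, adjusted p = 0.231 by edgeR), and it was called by DESeq2.

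**Figure D3:**
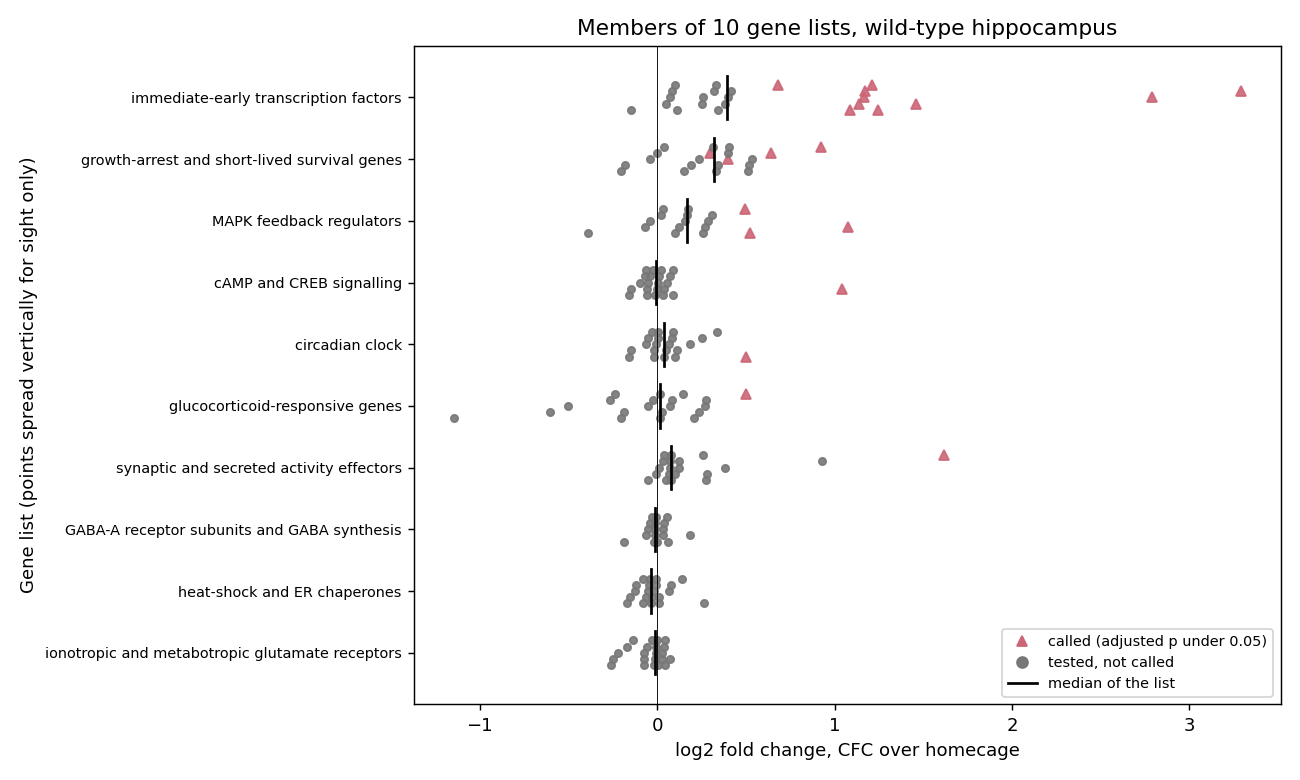
log2 fold change (CFC over homecage) of each tested member of 10 gene lists, with called genes as triangles, the others as circles and the list median as a vertical bar. The called members reach 3.29 in the immediate-early list, while the medians of the receptor, chaperone and cAMP lists lie at or next to 0.

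By edgeR 0 genes were called lower (0%), while 333 (1.84%) were lower before adjustment. Lower calls did appear under other settings: 16 with the choroid plexus covariate, 1 (Crabp2) with 1 RUVr factor and 1 with DESeq2. The 16 included Fmod, Crabp2, Slc26a7, Slc13a4, Nupr1, Cdh1, Foxc2 and Chrnb4. Whether they reflect training or the tissue taken was not tested. Among the genes lower in the main fit, none of them called there, the first by p was Adamts17, a secreted metalloprotease. It read 11.5, 10.2 and 11.1 CPM in homecage and 8.18, 7.07, 8.26 and 8.64 CPM after CFC (-0.45 ± 0.10, adjusted p = 0.42 by edgeR). Next came Gm3764 (-0.23 ± 0.05), Gm45487 (-1.46 ± 0.34), Mir124-2hg, a host gene of the neuronal microRNA miR-124 (-0.20 ± 0.05), and Apol8 (-0.42 ± 0.10), with adjusted p from 0.513 to 0.707. In these 5, every CFC library was below every control, as it was in 2.66% of all genes. DESeq2 called 42 genes, of which 41 were higher and 1, Gm3764, was lower.

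The tissue carried the markers of its label. Dentate granule, CA1, CA2 and CA3, interneuron and glial lists were all detected, no marker was called in any list by edgeR in the comparison as reported, and the summed levels of the neuronal lists overlapped between groups. Choroid plexus was the exception in spread: its 18 markers had a median log2 fold change of 1.49, all 18 positive and none with p under 0.05; with 1 RUVr factor in the fit 6 of them (Abca4, Ace, Aqp1, Clic6, Kl and Otx2) were called higher. Their summed level ran from 72.4 to 2150 CPM in homecage and from 85.8 to 5150 CPM after CFC. Ttr, transthyretin, which choroid plexus secretes, read 5.18, 1730 and 3.62 CPM in homecage and 12.4, 4310, 1740 and 1870 CPM after CFC. The low libraries were thus homecage 1, homecage 3 and CFC 1, and each group held libraries with little and with much plexus signal. CFC 1, with little plexus signal, had the highest trained value in 11 of the 21 called genes, and CFC 2, with the most, had the lowest in 14. CFC 3 and CFC 4 had the lowest in 2 each. Among the controls, homecage 2, with much plexus signal, had the highest value in 9 and the lowest in 4. Homecage 1, with little, had the highest in 6 and the lowest in 5. Homecage 3, also with little, had the highest in 6 and the lowest in 12. Whether plexus signal bears on these values was not tested. With the plexus score as a covariate 38 genes were called, 22 higher and 16 lower, and 19 of the 21 were among them. Mcl1 and Dusp5 then had adjusted p of 0.0667 and 0.0533. In bulk tissue fewer cells of a type and less RNA per cell cannot be told apart.

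**Figure D4:**
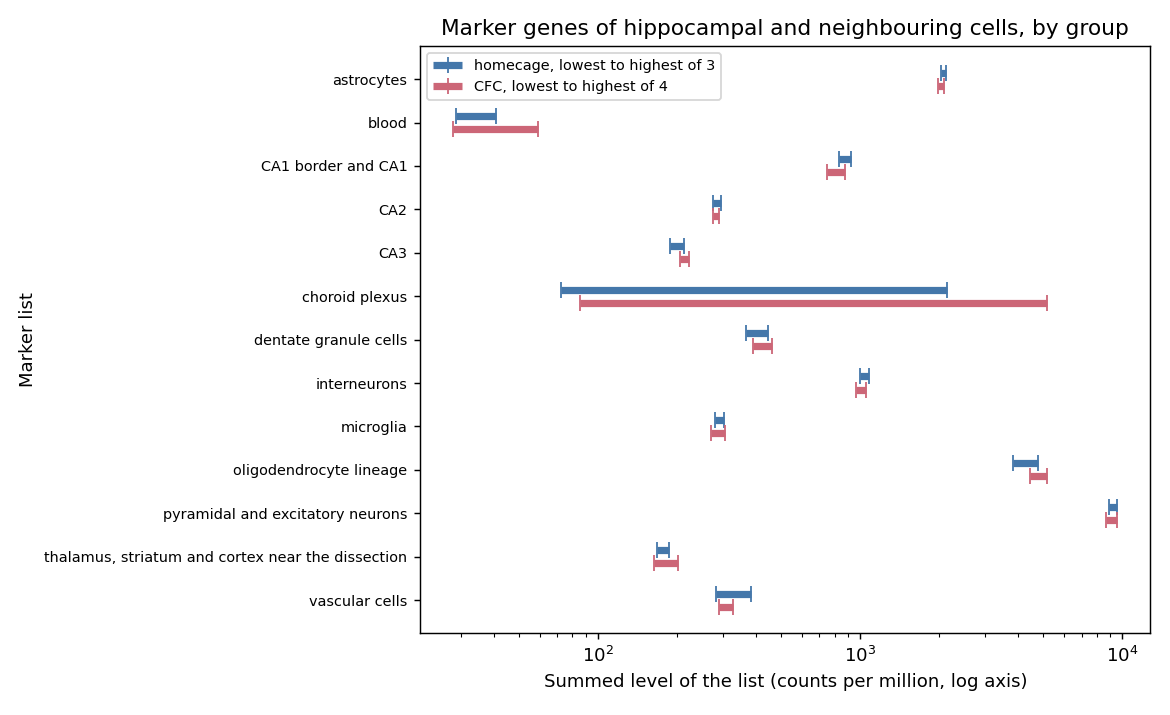
Summed level (CPM, log axis) of each marker list, as a bar from the lowest to the highest library for homecage (n = 3) and for CFC (n = 4). The bars overlap in every list, and that of choroid plexus spans 72.4 to 2150 CPM in homecage and 85.8 to 5150 CPM after CFC.

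The calls differed in how far they rested on single libraries. When each library was left out in turn, 13 of the 21 were called every time (Egr1, Arc, Nr4a1, Fos, Junb, Egr2, Sik1, 1700016P03Rik, Dusp1, Dusp6, Ier2, Fosb and Egr4). Mcl1 and Dusp5 lost the call whichever library was absent. Tiparp kept it only without homecage 3, Csrnp1 only without CFC 2, Npas4 without homecage 2 or CFC 2, and Per1 without homecage 1 or CFC 4. Btg2 kept it without homecage 2, CFC 2 or CFC 4, and Tob1 without homecage 2, homecage 3 or CFC 2. Over these losses the highest adjusted p was 0.298, for Dusp5, and the log2 fold changes stayed positive in all 21 genes under each of 20 alternative settings. The count of calls fell to 14 without homecage 1, to 13 without CFC 1 and to 13 without CFC 3. It was 0 when all 15 libraries of RNA-Seq 2 shared one estimate of the spread, 17 when the mutant control described next was left out of that fit, and 1 with replicates 1 and 2 only.

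The same training was given to CBP KIX/KIX mice, whose mutant CBP cannot bind phosphorylated CREB through the KIX domain, and the difference between the genotypes was tested as an interaction. Over all 15 RNA-Seq 2 libraries 0 of 18851 genes differed in response by edgeR (0%), with 927 (4.92%) at p under 0.05 before adjustment and 1, Ngb, called by DESeq2. That fit holds a library labelled CBP KIX/KIX homecage 3 that stood far from its group: it read 117 CPM for Fos against 1.83 to 4.77 in the other 3 mutant controls, 617 CPM for Arc against 53.2 to 77.9, and 40 CPM for Egr2 against 0.306 to 0.879. It exceeded every other homecage library, WT or mutant, in all 21 genes. With it in the fit, 0 of the 21 were called in the mutants and their median log2 fold change was 0.02.

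Without that library 14 of the 21 genes were called higher after CFC in CBP KIX/KIX mice, against 0.0892% of 19066 genes, and all 21 were positive. Their median log2 fold change was 1.08 in WT and 1.08 in the mutants. The library was left out after its high values in these same 21 genes were seen. The mutant values without it are therefore not independent of that choice. Fos in the mutants stood at 22.2, 18, 24.9 and 24 CPM after CFC (log2 fold change 2.94 ± 0.24), and the WT minus mutant difference was -0.14 (95% interval -0.84 to 0.56). For Arc the difference was -0.02 (-0.39 to 0.34), and for Egr1 it was -0.23 (-0.65 to 0.19). Over the 21 genes the differences ran from -0.32 (Sik1) to 0.36 (Fosb), 9 were positive, and 0 of 19066 genes were called for the interaction (686 before adjustment). Csrnp1 alone of the 21 had an unadjusted p under 0.05 (difference 0.33, interval 0.04 to 0.62, adjusted p = 0.999). The missing calls do not show that the genotypes respond alike. Leaving out CBP KIX/KIX homecage 1 instead gave 54 calls for the interaction, none among the 21. With all 15 libraries the lowest p for a stronger WT response belonged to Aspm, Dgki and Grhl2 (2.02, 0.53 and 1.83), and for a weaker one to Ngb, Lypd1 and Mesp2 (-1.69, -0.56 and -1.18), with adjusted p from 0.492 to 0.944.

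WT mice of RNA-Seq 1 were trained in the Morris water maze (MWM), a swimming task learned over days, and taken 1 h after a session with 3 libraries and 3 homecage controls of their own. Those libraries were depleted of ribosomal RNA and sequenced at another site, so task, library type and run cannot be told apart. Of 22038 genes 3 (0.0136%) differed in response, all with a larger increase after CFC. Fos had a log2 fold change of 2.79 ± 0.16 after CFC and 1.14 ± 0.15 after MWM (difference 1.66 ± 0.22, adjusted p = 0.0289 by edgeR). Btg2 was at 0.92 ± 0.11 and -0.17 ± 0.11 (1.09 ± 0.15, adjusted p = 0.0289). Sik1 was at 1.04 ± 0.10 and 0.09 ± 0.10 (0.95 ± 0.14, adjusted p = 0.0289). Of the 21 genes called after CFC, 6 were called higher after MWM (Arc, Nr4a1, Fos, Junb, Egr2 and Dusp5), against 0.0272% of all genes, and 18 were positive with a median of 0.35. Dusp5 read 0.53 ± 0.14 after CFC and 0.88 ± 0.15 after MWM (difference -0.35 ± 0.20, adjusted p = 0.709), while Npas4 read 1.46 ± 0.31 and -0.06 ± 0.31 (difference 1.52 ± 0.44, adjusted p = 0.527). For a smaller increase after CFC the lowest p belonged to Apol8 (-0.79), Vip (-0.74) and Chrm5 (-1.25), with adjusted p from 0.307 to 0.335. The 3 calls did not hold without certain libraries: none was called when MWM 1, 2 or 3, RNA-Seq 2 homecage 1 or 3, or CFC 3 or 4 was left out. Btg2 and Sik1 were also lost without RNA-Seq 1 homecage 1, Btg2 without CFC 1 and Sik1 without CFC 2, while leaving out RNA-Seq 1 homecage 3 gave 883 calls.

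**Figure D5:**
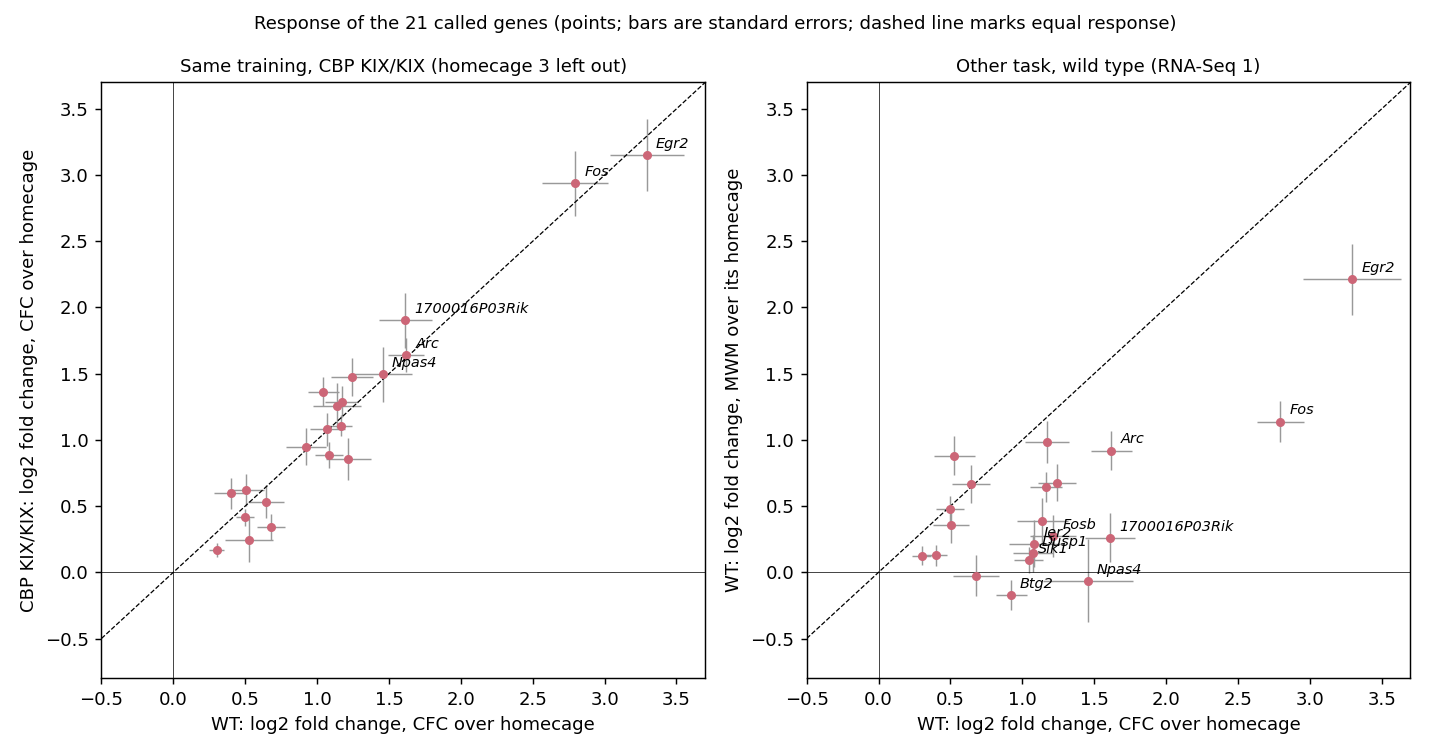
log2 fold change of the 21 called genes after CFC in WT mice (horizontal) against that after CFC in CBP KIX/KIX mice with homecage 3 left out (left panel) and after MWM in WT mice (right panel), with standard errors as bars. On the left the points lie along the dashed line of equal response, and on the right most lie below it, Fos at 2.79 and 1.14.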

How the data were processed

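Raw counts per gene were deposited by the authors as one table for 24 libraries; reads were aligned to mm10 (GRCm38) with STAR, and featureCounts 1.4.4 and SAMtools 1.6 are named in the submitters' processing notes. The annotation release and the strand setting are not given in the sources used here. Libraries were grouped by the labels, and the labels do not say whether replicates are separate animals, so p-values measure the spread between these samples. Gene names and positions came from GENCODE M21, in which 51633 of 51826 identifiers were found. Genes were kept by filterByExpr, normalised by upper quartile and tested with edgeR 4.0.16 (quasi-likelihood, R 4.3.3), with Benjamini-Hochberg adjustment and a threshold of 0.05; CPM values are scaled by the same factors and a mean is over libraries. Standard errors were derived from the fold change and the F statistic. Both interactions were fitted over 15 and 13 libraries. The script was tested on simulated data with 200 genes changed by a log2 fold change of 1. The WT fit recovered 149 of them (74.5%), and 17 of its 166 calls were false. The genotype interaction recovered 61%, with 3 of 125 calls false, and the task interaction 50%, with 10 of 110 false.

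The members and the gene lists were chosen with earlier results of these data known. Named were all called genes, the 5 of lowest p in each direction, list members, the 3 of lowest p in each direction of each interaction, and Crebbp. Same-numbered WT libraries deviated from their group means together (r from 0.227 to 0.515 over 3 pairs, against -0.413 to 0.195 for other pairs). Over WT and CBP KIX/KIX libraries of RNA-Seq 2 the ranges overlapped. There r ran from -0.14 to 0.523 for same-numbered pairs (mean 0.222) and from -0.503 to 0.402 for others (mean -0.0745). The main fit did not pair libraries by replicate number. Pairing was used only as an alternative, the replicate block. The block gave 17 calls, of which 15 were among the main calls, and blocked values stand beside the calls it lost. Replicates differed by far more than counting noise. Alternatives were TMM, DESeq2 1.42.0, other filters, the replicate block, a depth term, 1 RUVr factor, GC-content normalisation, the legacy method, other sets of libraries and each library left out. A plexus covariate and the removal of the outlying mutant control were chosen after seeing the data. A count of 3 was taken as the floor. A result for 1 gene is not reported here.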

Additional observations from a re-analysis of the deposited data

Results flagged for a closer look

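Among groups of 4 libraries, a single library lay far from the others by Dixon's test, which flags about 1 group in 20 by chance. In the trained WT group this held for 2 of 26 genes examined: Fos in CFC 2 (24.9 CPM, the others 33.1 to 33.7) and Egr4 in CFC 1 (38.4 CPM, the others 30.8 to 32.0).

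In the mutant homecage group it held for 15 of the 21 genes called in WT, each time for the library labelled CBP KIX/KIX homecage 3, and in the mutant CFC group for 0 of 21. That library read 442 CPM for Egr1, 617 for Arc, 322 for Nr4a1, 117 for Fos, 202 for Junb and 40 for Egr2. It read 19.1 CPM for Sik1, 14.3 for 1700016P03Rik, 121 for Dusp6, 18.3 for Ier2 and 104 for Fosb. For Egr4, Npas4, Btg2 and Tiparp it read 91.5, 131, 64.4 and 60.2 CPM. The 15 genes share this library, so they are not 15 separate observations. Its values exceed those of the 4 trained mutant libraries too, which for Fos were 18 to 24.9 CPM and for Arc 192 to 240 CPM.

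By the test of the difference, the increase was larger after CFC than after MWM for Fos (log2 difference 1.66), Btg2 (1.09) and Sik1 (0.95). Task, library type and run cannot be told apart in it. None of the 3 was called without MWM 1, 2 or 3, among other single libraries. Btg2 and Sik1 also lost the call with TMM, the depth term or GC normalisation.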

How the results depend on the processing

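For WT CFC against homecage the 21 calls became 42 with DESeq2 (21 shared), 67 with 1 RUVr factor (66 higher and 1, Crabp2, lower), 38 with the plexus covariate, 0 with all 15 RNA-Seq 2 libraries in the fit, 17 in that fit without CBP KIX/KIX homecage 3, and 1 (Nr4a1) with replicates 1 and 2 only, which leaves 2 against 2. The replicate block gave 17 calls, of which 15 were among the 21, and single libraries left out gave 13 to 19. TMM, both other filters, the depth term, GC normalisation and the legacy method gave 19 to 22. All 21 kept a positive sign throughout, and 13 kept the call in the 18 settings other than the 15-library fit and the replicates 1 and 2 fit.

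For the interaction with genotype the 0 calls became 1 with DESeq2 and 0 to 54 with single libraries left out; the 54 came without CBP KIX/KIX homecage 1, and every other omission gave 0, as did the replicate block. For the interaction with task the 3 calls became 1 with TMM, 29 with DESeq2, 1 with the depth term, 16 with RUVr, 1 with GC normalisation and 4 with the replicate block. Single libraries left out gave 0 to 883; the 883 came without RNA-Seq 1 WT homecage 3, and 8 without RNA-Seq 1 WT homecage 2. The cause of these shifts was not tested. Low genes such as Egr2 rest on as few as 15 reads in a library.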

Other observations

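Genes of sterol synthesis and uptake were looked at after their values were seen, so their direction is a description. Of 19 such genes 13 had a positive log2 fold change after CFC, 0 were called and the median was 0.0867, against -0.00461 over all genes. Cyp51, a lanosterol demethylase, read 58.2, 57.9 and 57.5 CPM in homecage and 68.0, 68.2, 66.2 and 64.7 CPM after CFC (0.21 ± 0.04, adjusted p = 0.273 by edgeR), and it was called by DESeq2. Every CFC library was above every homecage library in 5 of the 19 genes, as in 2.6% of all genes tested.

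Apold1, an endothelial immediate-early gene, read 3.27, 2.67 and 3.29 CPM in homecage and 6.77, 4.54, 6.56 and 7.10 CPM after CFC (1.02 ± 0.18, adjusted p = 0.147 by edgeR), and was called with DESeq2, 1 RUVr factor, the plexus covariate, and CFC 2 left out. Slc16a1, a lactate and monocarboxylate carrier, read 39.8, 40.6 and 38.6 CPM in homecage and 46.4, 46.8, 49.6 and 47.0 CPM after CFC (0.26 ± 0.05, adjusted p = 0.173 by edgeR), and was called by DESeq2. Both genes were named after their values were seen.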
